A study of Drosophila melanogaster with 12 samples.

Results

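Atg10, CtsB and Vha13 were the autophagy and lysosome genes described here, across 12 arrays of whole-larva RNA from Drosophila melanogaster. Their probes were found by comparing the target names in the scanner files with gene symbols, clone names and RefSeq accessions, which gave 4 probes of 32162 on the array, for 3 of the 406 genes that could be named. Atg10 had 2 probes, A_09_P024936 and A_09_P063566, both under NM_001103746. CtsB had A_09_P149005 under NM_001272607, and Vha13 had A_09_P133410 under the cDNA clone AT14009. Probes of the same genes under other identifiers, which could not be paired with a gene name, were not analysed here. All 4 probes were well above background on all 12 arrays, so none entered the tests through a single bright group.

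The larvae were w1118 controls or REPTOR knockouts, which lack a bZIP transcription factor controlled by the TORC1 kinase complex. For 6 h they fed on food with 200 µM rapamycin, an inhibitor of TORC1, or on food with the solvent ethanol. This made 4 groups of 3 arrays, described by the submitters as biological replicates, from larvae labelled female and taken 48 h before wandering. The knockout allele, its genetic background and the number of larvae behind each RNA sample are not given in the sources used here. No probe could be matched to REPTOR, so the deleted gene gave no check of the genotype labels.

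Autophagy delivers cytoplasm to the lysosome in double-membraned vesicles, and TORC1 restrains it while nutrients are plentiful. Atg10 is an E2-like enzyme that joins Atg12 to Atg5, a step in the growth of the autophagosome membrane. CtsB encodes cathepsin B, a cysteine protease that breaks down protein in the lysosome. Vha13 encodes the G subunit of the peripheral V1 part of the vacuolar ATPase, the proton pump that acidifies lysosomes and endosomes and also works at the surface of some epithelia. The larval fat body of flies is known for its strong autophagy when TORC1 activity is low.

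The share of spots well above background was 72.5% to 82.7% per array, and 0 spots were saturated. The arrays lay on 3 slides of 4. The 3 control ethanol arrays shared slide 1 with control rapamycin array 1, and control rapamycin arrays 2 and 3 shared slide 2 with knockout ethanol arrays 1 and 2. Slide 3 held knockout ethanol array 3 and the 3 knockout rapamycin arrays, so slide and group overlapped strongly. By roX2, a noncoding RNA made in males, 3 arrays went against the label female: its level was -1.29 on array 3 of the control rapamycin group, and 0.01 and -1.10 on arrays 1 and 2 of the knockout rapamycin group. On knockout rapamycin array 3 it was lower, at -5.83, yet well above background on this brighter roX2 probe, though not on the other. Elsewhere it lay between -9.06 and -6.90, not well above background. Of 6 markers of male tissue only roX1 and roX2 had a named probe. The log2 of their summed level ran from 0.51 to 1.10 on control ethanol, 1.43 to 4.42 on control rapamycin, -0.25 to -0.14 on knockout ethanol and 0.70 to 5.0 on knockout rapamycin arrays. This sum rests mostly on the brighter probes of roX1, which was well above background on every array. Only 491 of the probes could be paired with 1 gene symbol, and none of these was for a listed marker of fat body, salivary gland, midgut, hemocytes or muscle. Of 5 cuticle genes 3 had a named probe, well above background on every array.

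The level of a probe is its log2 signal less the log2 of the array's 75th percentile, and a difference of 1 is a factor of 2. A level says nothing about one probe against another, since probes differ in how brightly they report a transcript. Because RNA came from whole larvae, fewer cells of a type and less RNA per cell cannot be told apart. Effects are log2 differences with the standard error of a limma model over the 4 groups, with Benjamini-Hochberg adjusted p-values over 24026 probes and a threshold of 0.05.

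The first question was how the 3 genes responded to rapamycin in control larvae. Atg10 and CtsB rose by similar amounts and Vha13 fell. On probe A_09_P024936, the Atg10 level was 0.69, 0.73 and 0.71 on the ethanol arrays and 1.15, 1.26 and 1.21 on the rapamycin arrays. All rapamycin arrays lay above all ethanol arrays, and the distance between the groups was far larger than their SDs of 0.02 and 0.05. The rise was 0.50 ± 0.06 (SE, n = 3 per group, limma adjusted p = 0.000105), a factor of 1.41 with a 95% confidence interval from 1.29 to 1.54. It was 0.50 without control rapamycin array 3, the one with raised roX2, and the knockout arrays with raised roX2 (adjusted p = 0.00239).

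The CtsB level was -1.51, -1.73 and -1.48 on the control ethanol arrays and -1.13, -0.93 and -1.14 on the control rapamycin arrays. The groups again did not overlap, but the arrays of each group differed more than for Atg10, with SDs of 0.14 and 0.12. The cathepsin gene rose by 0.50 ± 0.14 (n = 3 per group, limma adjusted p = 0.0162), a factor of 1.42 with an interval from 1.14 to 1.76. Its call was lost when control ethanol array 2 (0.43, adjusted p = 0.0633) or control rapamycin array 2 (0.44, adjusted p = 0.0607) was left out. With quantile normalisation it was 0.42 (adjusted p = 0.0892), and with the deposited processed values it was 0.38 (adjusted p = 0.109).

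The Vha13 level was 6.67, 6.88 and 6.88 on the control ethanol arrays and 6.23, 6.21 and 6.06 on the control rapamycin arrays. The proton pump subunit thus stood lower on every rapamycin array. It fell by 0.65 on the log2 scale (SE 0.09, n = 3 per group, limma adjusted p = 0.000366), to 0.639 of the ethanol level with an interval from 0.556 to 0.735. Its processed signal was between 153577 and 191106 on the ethanol arrays and between 93080 and 114614 on the rapamycin arrays, below the saturation mark on all of them.

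The other Atg10 probe, A_09_P063566, did not pass. Its level was -3.43, -3.26 and -3.28 on the control ethanol arrays and -3.27, -3.05 and -3.20 on the control rapamycin arrays, so the groups overlapped. The difference was 0.15 ± 0.08 (limma adjusted p = 0.167), with a 95% interval from -0.03 to 0.33 that lies below the 0.50 of the first probe. This probe has 2 spots per array, whose levels differed by 0.02 to 0.34 within an array, and its signals of 126 to 194 compared with local background readings of 9 to 24. Within an array the gap between the probes was 4.03 ± 0.08 (SD, n = 3) on control ethanol and 4.38 ± 0.06 on control rapamycin arrays. It was 4.11 ± 0.07 on knockout ethanol and 4.23 ± 0.05 on knockout rapamycin arrays. The gap widened by 0.35 on rapamycin in control larvae (exact two-sided permutation p = 0.1, the smallest that 3 arrays against 3 allow) and by 0.13 in knockout larvae (exact p = 0.2). Averaged over genotypes it widened by 0.24 (exact two-sided permutation of the foods within each genotype, p = 0.01, smallest possible 0.005). These permutations were not among the planned tests. They treat arrays as exchangeable between foods, although slide and group overlapped strongly. In knockout larvae the interval of A_09_P063566, from -0.05 to 0.31, includes the 0.26 of A_09_P024936, so a disagreement between the probes was not shown there. The rise of the gene rests on A_09_P024936. Taking the mean of both probes gave 0.32 ± 0.06 in control larvae (adjusted p = 0.00303). In the RefSeq table Atg10 overlaps CG12822 and Dgk, neither with a named probe, while CtsB and Vha13 overlap no other gene.

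**Figure D1:**
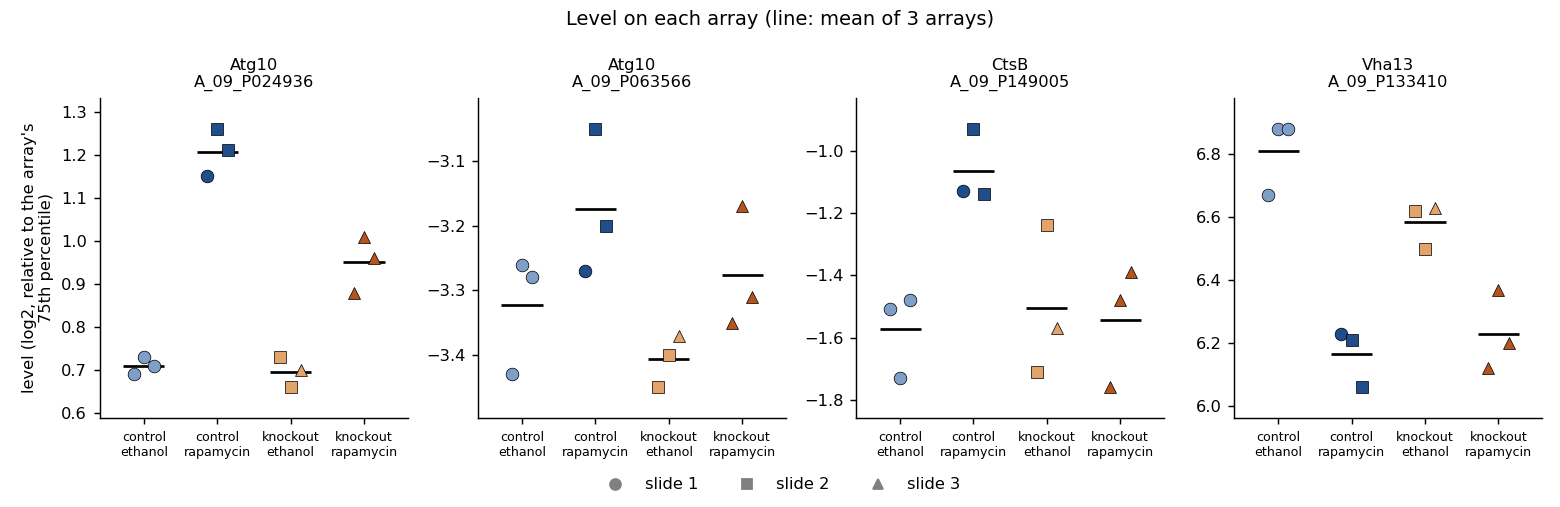
Level of each probe on the 12 arrays, as log2 signal relative to the 75th percentile of the array (vertical axes, a separate range for each probe), by group. Points are arrays with the slide given by their shape, and lines are means of 3 arrays. Atg10 on A_09_P024936 and CtsB stood highest in control larvae on rapamycin, Vha13 stood lowest on both rapamycin groups, and the groups of A_09_P063566 spanned only -3.45 to -3.05.

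Of the 4 probes 2 were called higher in control larvae, against 20.4% of all tested probes, and 1 was called lower, against 20.9%. The rapamycin and ethanol arrays did not overlap for 3 of the 4, against 55.8% of all tested probes. Over all probes the median effect was 0.05. A larger rise than that of Atg10 on A_09_P024936 was seen for 18.1% of tested probes and than that of CtsB for 17.9%, and a deeper fall than that of Vha13 for 10.8%. The responses were therefore of common size among the many transcripts that changed. With arrays centred on their median, which moved the median of all probes to -0.17, Atg10 had 0.27 (adjusted p = 0.389) and CtsB 0.28 (adjusted p = 0.503), and neither passed. Of the cuticle genes, Cpr49Ag ranged from 3.26 to 3.83 on control ethanol and from 2.56 to 2.69 on control rapamycin arrays, Cpr60D from 6.19 to 6.53 and from 5.84 to 5.87, and Acp65Aa from -2.93 to -1.63 and from -3.34 to -2.72. The part of cuticle-forming cells in the results for Atg10, CtsB and Vha13 was not tested.

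Slide was the batch that could be examined. All control ethanol arrays lay on slide 1, so with slide as a fixed block the effect in control larvae rests on that slide alone, where control rapamycin array 1 faced the 3 ethanol arrays. This single contrast was 0.44 for Atg10, 0.44 for CtsB and -0.58 for Vha13. The spread came from all 12 arrays in the fit with the block, and the adjusted p was then 0.0111 for Atg10, 0.187 for CtsB and 0.0215 for Vha13. In a fit of slide 1 alone the spread came from the 3 ethanol arrays only, and the adjusted p was 0.0650, 0.126 and 0.0713. With 1 rapamycin array on the slide, its own spread was assumed to be that of the other arrays.

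The second question was whether the genes responded in larvae without REPTOR. Atg10 rose and Vha13 fell there too, and CtsB did not pass. On A_09_P024936 the Atg10 level was 0.73, 0.66 and 0.70 on the knockout ethanol arrays and 0.88, 1.01 and 0.96 on the knockout rapamycin arrays. The groups did not overlap, and the rise was 0.26 ± 0.06 (n = 3 per group, limma adjusted p = 0.0179), a factor of 1.19 with an interval from 1.09 to 1.30. With arrays centred on their median it turned to -0.09, a setting that moved the median of all probes to -0.33. Relative to the median of all probes the effect was 0.24 under both scalings. Each scaling subtracts a constant per array, so this value could not differ and says nothing about the rise. The call was lost without knockout rapamycin array 2 (0.23, adjusted p = 0.0670) and in the mean of both probes (0.19, adjusted p = 0.0751).

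The Vha13 level was 6.62, 6.50 and 6.63 on the knockout ethanol arrays and 6.12, 6.37 and 6.20 on the knockout rapamycin arrays. Every rapamycin array was again below every ethanol array. Vha13 fell by 0.35 on the log2 scale (SE 0.09, n = 3 per group, limma adjusted p = 0.0311), to 0.783 of the ethanol level with an interval from 0.680 to 0.901. The call was lost when knockout ethanol array 1 or 3, or knockout rapamycin array 1 or 3, was left out, with values between -0.34 and -0.30 and adjusted p from 0.0572 to 0.101.

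For CtsB the level was -1.71, -1.24 and -1.57 on the knockout ethanol arrays and -1.76, -1.48 and -1.39 on the knockout rapamycin arrays. The groups overlapped, and knockout ethanol array 2 and knockout rapamycin array 1 stood apart at opposite ends. The difference was -0.03 ± 0.14 (limma adjusted p = 0.888), with an interval for the factor from 0.786 to 1.21. That interval leaves room for a modest change in either direction, so the absence of a response was not shown. The lowest CtsB level, -1.76, lay on knockout rapamycin array 1, which also had the highest roX2 level, and leaving that array out gave 0.07. CtsB was nearly as low on control ethanol array 2 (-1.73) and knockout ethanol array 1 (-1.71), where roX2 was -8.97 and -9.06. The part of the roX2 signal in this result was not tested.

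The probe A_09_P063566 of Atg10 had levels of -3.45, -3.40 and -3.37 on the knockout ethanol arrays and -3.35, -3.17 and -3.31 on the knockout rapamycin arrays. These groups did not overlap, yet the difference of 0.13 ± 0.08 did not pass (limma adjusted p = 0.290). The sign of this small value turned with the deposited processed values, to -0.23.

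Of the 4 probes 1 was called higher in knockout larvae, against 5.96% of all tested probes, and 1 lower, against 8.25%. Groups were free of overlap for 3 of 4 probes, against 34.0% of all tested probes, and the median of all probes was 0.01. A higher value than that of Atg10 on A_09_P024936 was seen for 22.3% of tested probes and a lower value than that of Vha13 for 13.1%. All knockout rapamycin arrays lay on slide 3, so with slide as a fixed block the effect rests on that slide, where knockout ethanol array 3 alone faced them. This contrast was 0.25 for Atg10, -0.40 for Vha13 and 0.03 for CtsB. The adjusted p with the block was 0.202, 0.199 and 0.954. In a fit of slide 3 alone, 0 of 24024 probes were called by limma, with 3076 at an unadjusted p under 0.05, so the lack of a call there says nothing about these genes. Leaving out the arrays with raised roX2 left 1 knockout rapamycin array, whose spread was taken to be that of the other groups, and gave 0.27 for Atg10 (adjusted p = 0.190), -0.38 for Vha13 (adjusted p = 0.163) and 0.11 for CtsB (adjusted p = 0.808).

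**Figure D2:**
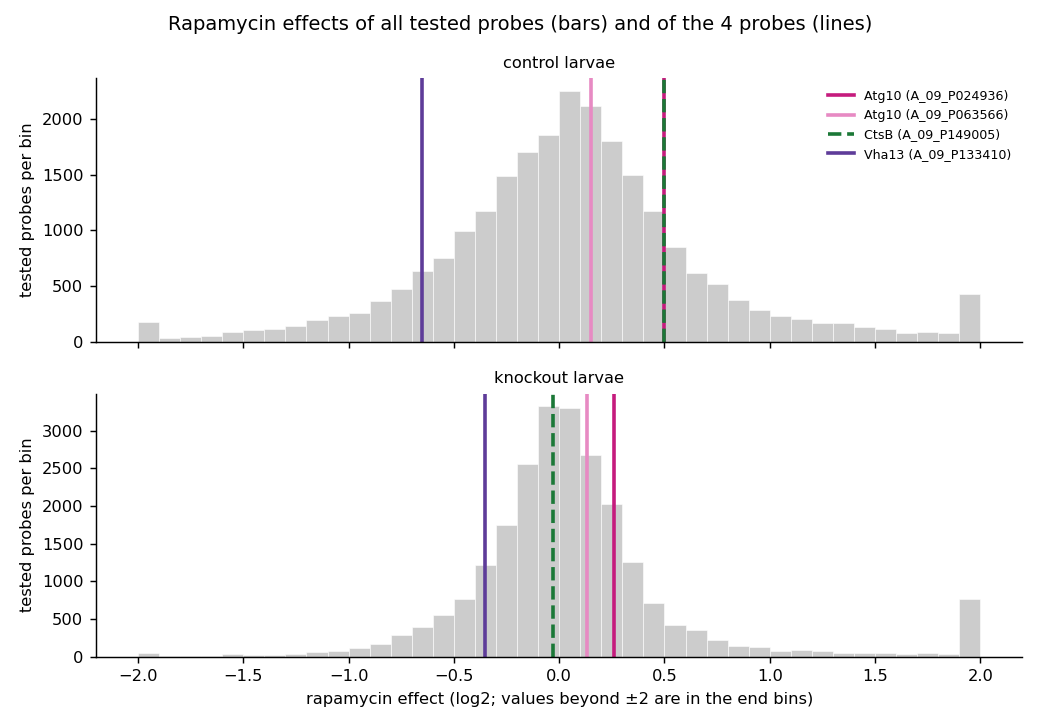
Number of tested probes (vertical axis) by rapamycin effect in log2 units (horizontal axis, bins of 0.1), in control larvae above and in knockout larvae below, with the 4 probes as coloured lines and values beyond the axis in the end bins. In control larvae the lines of Atg10 on A_09_P024936 and of CtsB coincide at 0.50, and in knockout larvae they lie at 0.26 and -0.03.

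The third question was whether the response depended on REPTOR, taken as the rapamycin effect of the knockout less that of the control. For all 3 genes the value pointed to a smaller response in the knockout, and none passed after adjustment over all probes. The difference was -0.24 ± 0.08 for Atg10 on A_09_P024936 (limma adjusted p = 0.0773), with a 95% interval from -0.42 to -0.06. For CtsB it was -0.54 ± 0.20 (adjusted p = 0.105, interval from -0.98 to -0.10), the full size of the rise in control larvae. For Vha13 it was 0.29 ± 0.13 (adjusted p = 0.169, interval from 0.01 to 0.58), a shallower fall. On A_09_P063566 it was -0.02 ± 0.11 (adjusted p = 0.931).

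Of the 4 probes, 0 were called in either direction by limma, against 6.40% of all tested probes called for a higher effect in the knockout and 7.60% for a lower one. At an unadjusted p under 0.05 it was 3 of 4, all but A_09_P063566, against 6733 of the 24026 tested probes. In either direction, 53.2% of tested probes had a larger difference than Atg10 on A_09_P024936, 25.2% than CtsB and 46.5% than Vha13. The values for CtsB and Vha13 were -0.41 and 0.18 with slide as a fixed block, and -0.42 and 0.21 without the arrays with raised roX2, while Atg10 had -0.19 and -0.23. With slide as a random block, at an estimated correlation of -0.16 between arrays of a slide, all 3 passed. They had -0.26 for Atg10 (adjusted p = 0.0156), -0.59 for CtsB (adjusted p = 0.0218) and 0.34 for Vha13 (adjusted p = 0.0378). Calls rose in general under this setting, to 6172 of the 24026 tested probes against 3364 in the main fit. Over 29 alternatives the difference passed in 2 for Atg10 on this probe, 1 for CtsB and 2 for Vha13.

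**Figure D3:**
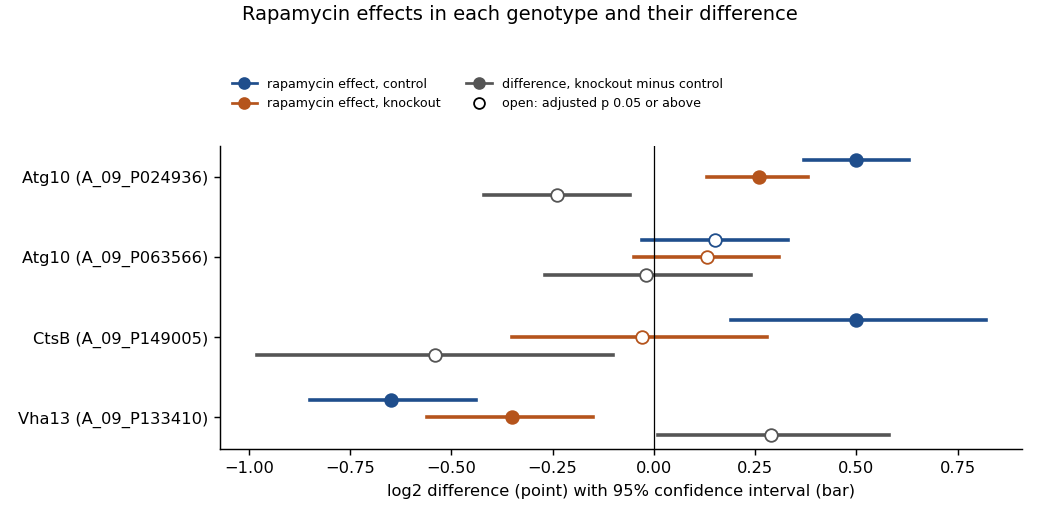
Rapamycin effect in each genotype and the difference of effects for the 4 probes, as log2 differences (points) with 95% confidence intervals from the limma model (bars). Filled points have an adjusted p under 0.05. The intervals of the difference for Atg10 on A_09_P024936, CtsB and Vha13 lie to one side of 0, although none passed after adjustment.

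Knockout and control larvae were also compared on each food. These comparisons share arrays with the ones above and include any difference in genetic background. For them the share of all tested probes free of overlap was not computed. On ethanol food the level of Atg10 on A_09_P024936 was 0.71 ± 0.02 (SD, n = 3) in control and 0.70 ± 0.04 in knockout larvae, a difference of -0.01 ± 0.06 (SE, limma adjusted p = 0.935). On A_09_P063566 the difference was -0.08 ± 0.08 (limma adjusted p = 0.562). For CtsB the levels were -1.57 ± 0.14 and -1.51 ± 0.24 (difference 0.06 ± 0.14, adjusted p = 0.842). Vha13 stood at 6.81 ± 0.12 in control and 6.58 ± 0.07 in knockout larvae without overlap, and its difference of -0.23 ± 0.09 did not pass (adjusted p = 0.151). It passed with slide as a random block (-0.25, adjusted p = 0.0359) and with array weights (-0.25, adjusted p = 0.0381). Those settings called 4988 and 5286 of the 24026 tested probes, against 1332 in the main fit. None of the 4 probes was called on ethanol food, 0 against 2.55% of all tested probes higher and 2.99% lower. At an unadjusted p under 0.05 the limma model gave 1 of 4, Vha13, against 6159 of the 24026 tested probes, a similar share.

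On rapamycin food CtsB, and Atg10 on A_09_P024936, were lower in the knockout. The other Atg10 probe, A_09_P063566, did not pass (difference -0.10, SE 0.08, limma adjusted p = 0.369). Atg10 on A_09_P024936 stood at 1.21 ± 0.05 (SD, n = 3) in control and 0.95 ± 0.07 in knockout larvae, a difference of -0.25 ± 0.06 (SE, limma adjusted p = 0.00913). CtsB stood at -1.07 ± 0.12 and -1.54 ± 0.19 (difference -0.48 ± 0.14, adjusted p = 0.0312), to 0.718 of the control level with an interval from 0.578 to 0.892. For A_09_P024936 and CtsB the groups did not overlap, without a share over all tested probes to set beside this. The call for CtsB was lost without any single control rapamycin array or without knockout rapamycin array 1 or 2, with values between -0.51 and -0.37. For Vha13 the levels were 6.17 ± 0.09 and 6.23 ± 0.13 (difference 0.06 ± 0.09, adjusted p = 0.624).

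Of the 4 probes 2 were called lower in the knockout on this food, against 14.2% of all tested probes, and 0 higher, against 12.4%. The call for Atg10 was lost in the mean of its probes (-0.18, adjusted p = 0.0701) and under median centring (-0.39, adjusted p = 0.290), and that for CtsB with the deposited values (-0.52, adjusted p = 0.0532) and under median centring (-0.61, adjusted p = 0.189). With slide as a fixed block Atg10 had -0.29 (adjusted p = 0.258) and CtsB -0.41 (adjusted p = 0.555). Without the arrays with raised roX2 they had -0.24 (adjusted p = 0.146) and -0.36 (adjusted p = 0.303). The cuticle genes were also free of overlap between genotypes on this food, again without a share over all tested probes to set beside this. Cpr49Ag ranged from 2.56 to 2.69 in control and from 3.48 to 3.61 in knockout larvae, Cpr60D from 5.84 to 5.87 and from 6.43 to 6.47, and Acp65Aa from -3.34 to -2.72 and from -1.55 to -0.90. Acp65Aa was free of overlap on ethanol food too, from -2.93 to -1.63 in control and from -1.30 to -0.78 in knockout larvae. Cpr49Ag and Cpr60D overlapped between genotypes on ethanol food. The part of the cuticle genes in the values for Atg10 and CtsB was not tested.

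The order of the group levels therefore differed between the genes. For Atg10 on A_09_P024936 it ran from control rapamycin over knockout rapamycin to the 2 ethanol groups, which did not differ beyond their spread. For CtsB control rapamycin stood above the other 3 groups, whose means lay between -1.57 and -1.51. For Vha13 it ran from control ethanol over knockout ethanol to the rapamycin groups, and of the neighbours only knockout ethanol and knockout rapamycin differed past the threshold.

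**Figure D4:**
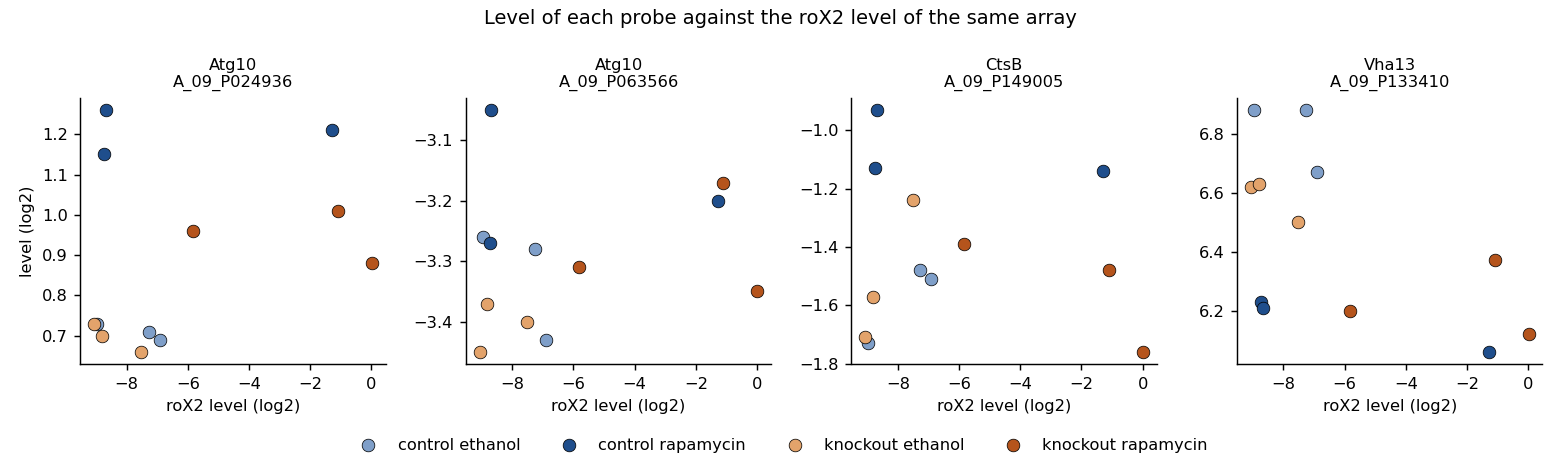
Level of each probe (vertical axes, log2 relative to the 75th percentile of the array) against the level of roX2 on the same array (horizontal axes, same unit, brighter roX2 probe), with 1 point for each of the 12 arrays. Control rapamycin array 3, with roX2 at -1.29, lies beside the other control rapamycin arrays for Atg10 on A_09_P024936. CtsB is low at both ends of the roX2 range, at -1.76 on the array with the highest roX2 level and -1.71 on that with the lowest.

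Over the 12 arrays the levels of Atg10 on A_09_P024936 and of Vha13 had a Pearson correlation of -0.80 (Spearman -0.71). Those of Atg10 and CtsB had 0.70 (0.48), and those of CtsB and Vha13 -0.51 (-0.37). The 2 probes of Atg10 had 0.79 (0.75). Against the brighter roX2 probe the correlation was 0.32 (0.23) for Atg10 on A_09_P024936, -0.10 (0.06) for CtsB and -0.56 (-0.54) for Vha13. The arrays fall into groups by food and genotype, so these values describe the pattern and were not tested.

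Among 147 other named genes, the patterns most like that of Atg10 over the 12 arrays were those of atos (r = 0.96), spen, which encodes an RNA-binding protein (r = 0.95), and Wdr59, a subunit of the GATOR2 complex upstream of TORC1 (r = 0.93). Spen rose by 0.49 ± 0.06 in control and 0.29 ± 0.06 in knockout larvae, nearly the values of Atg10, while atos rose more, by 1.38 ± 0.11 and 0.50 ± 0.11. Most like CtsB were Hsl, encoding hormone-sensitive lipase (r = 0.88), the peptidase gene Nepl4 (r = 0.84) and mio, another GATOR2 subunit (r = 0.84). Hsl had 0.94 ± 0.08 in control and -0.02 ± 0.08 in knockout larvae, so it shared with CtsB a rise in the controls and a value near 0 in the knockout. Nepl4 had 3.16 ± 0.12 and 0.40 ± 0.12. Most like Vha13 were the long noncoding RNA gene sphinx (r = 0.98), the snoRNA host gene Uhg5 (r = 0.96) and ND-B17.2, which encodes a subunit of respiratory complex I (r = 0.95). Sphinx had -0.48 ± 0.08 and -0.24 ± 0.08, ND-B17.2 had -0.36 ± 0.08 and -0.20 ± 0.08, and Uhg5 had -1.83 ± 0.13 and -1.23 ± 0.13. A high correlation thus did not mean an effect of similar size. All correlations share the same arrays and scaling. How far the likeness rests on steps between the groups of arrays was not tested.

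Few other genes of these pathways could be followed. Probes that could not be named may hold more of them and were not analysed here. Of 31 listed autophagy genes, Atg10 and bchs had a named probe, and that of bchs was well above background on 0 of 12 arrays. A named probe was found for 1 of 35 vacuolar ATPase genes, Vha13, and for 1 of 47 lysosome genes, CtsB, so the direction of Vha13 or CtsB cannot be read as that of the pump or of the lysosomal enzymes. Of 32 listed TORC1 and GATOR genes, mio, Wdr59 and Wdr24 were tested. In control larvae mio (1.51 ± 0.06 and 1.59 ± 0.06 on its 2 probes) and Wdr59 (1.71 ± 0.11) rose and Wdr24 did not pass (0.12 ± 0.11). In knockout larvae Wdr59 passed (0.37 ± 0.11, limma adjusted p = 0.0485) and neither mio nor Wdr24 did. The difference of effects passed for mio (-1.52 ± 0.08 and -1.65 ± 0.09) and Wdr59 (-1.34 ± 0.15). On the log2 scale those rises in control larvae were larger than the 0.50 of Atg10 and of CtsB.

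**Figure D5:**
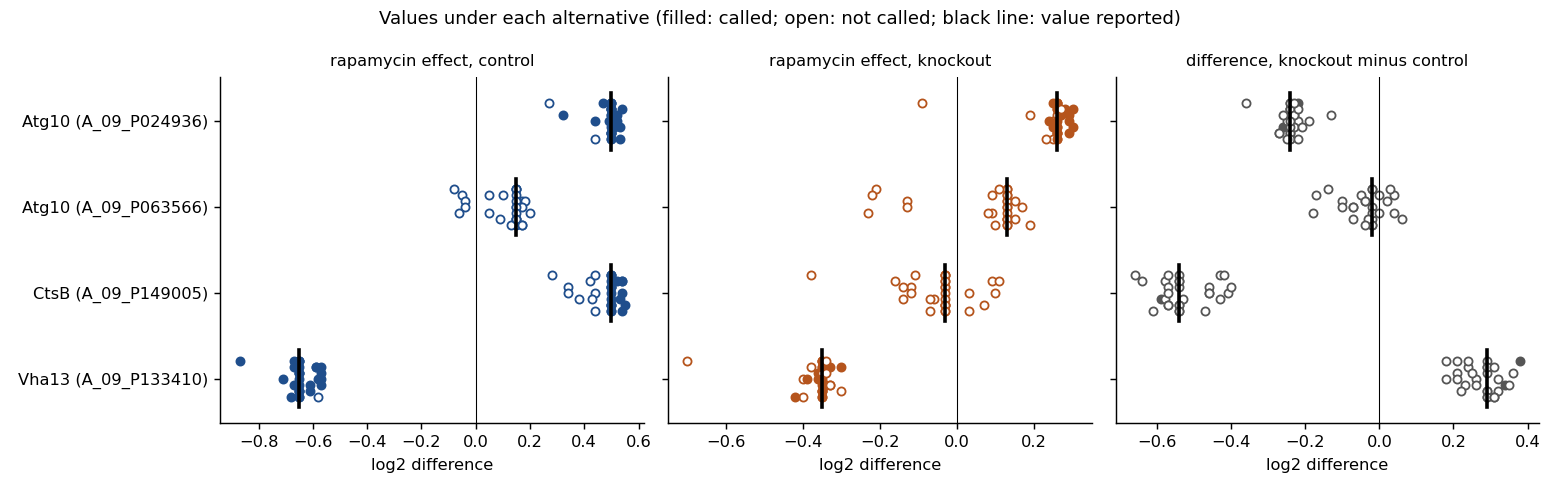
Log2 differences of the 4 probes under each processing alternative (points) beside the value reported (black lines), for the rapamycin effect in control larvae, in knockout larvae and the difference of effects. Filled points were called at the threshold of the alternative. Vha13 stayed below 0 in both genotypes and Atg10 on A_09_P024936 above 0 in control larvae, whereas most points of the difference are open.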

How the data were processed

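Total RNA of 12 larval samples, 0.5 µg each per the labels' protocols, was hybridised to one-colour (Cy3) Agilent arrays. Per the file headers, the authors' scanner output gives an intensity for every spot on a design annotated to build dm3; the submitters' processing notes name Agilent Feature Extraction 10.7. The background-corrected processed signal was the main measure. The deposited value table holds another linear intensity, made by a step not given in the sources used here; its order followed the quantile-normalised median spot signal (correlation over probes at least 0.9999, column medians from 144 to 157), and it served as an alternative.

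Controls and outlier-marked spots (42 to 108 per array) were dropped. The log2 signal was taken relative to the 75th percentile of its array, and spots of one probe were averaged. Names came from a RefSeq table of Release 6, which matched 491 of 32162 probes to 1 gene symbol; since its build differs from that of the array, no coordinates are given. Vha13 was matched through a clone name among its synonyms. To be tested, a probe had to stand well above background throughout 1 or more groups, which left 24026 probes.

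The limma test (version 3.58.1, R 4.3.3) was two-sided, with 4 group means, 8 residual degrees of freedom and Benjamini-Hochberg adjustment over those probes, and was tested on simulated data. The p-values measure the spread between these arrays, whose number limits the precision.

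Genes were named by rule: all probes of Atg10, CtsB and Vha13, the tested genes of 4 pathway lists, the markers with a probe, and the 3 named genes most like each of the 3 by Pearson correlation over the arrays. The genes and lists were chosen with earlier results of these data known. Alternatives were other scalings, normexp on median spot signals (a mean signal was not used here), the deposited values, no filter, the mean of a gene's probes, slide and replicate blocks, single slides, array weights, a threshold of 0.01 and leaving out each array. Leaving out the arrays with raised roX2, and normexp without outlier spots, were added after seeing the data.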

Additional observations from a re-analysis of the deposited data

How the results depend on the processing

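Of 578 values recomputed for the 4 probes and 5 comparisons, 494 kept their direction and their side of the threshold. The call for Atg10 (A_09_P024936 unless named otherwise) in control larvae held in 28 of 30 alternatives, that for CtsB in 20 and that for Vha13 in 29. In knockout larvae the calls for Atg10 and Vha13 held in 23 and 19 of 30, and on rapamycin food those for Atg10 and CtsB in 25 and 19 of 29. The cause of the changes below was not tested, except where fewer arrays or a stricter threshold name it.

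Median centring moved the median of all probes to -0.17 in control and -0.33 in knockout larvae and to -0.13 between genotypes on rapamycin food. It gave 0.27 for Atg10, 0.28 for CtsB and -0.08 for A_09_P063566 in control larvae. In knockout larvae it gave -0.09, a turned sign, for Atg10, -0.21 for A_09_P063566 and -0.70 (adjusted p = 0.0767) for Vha13, and on rapamycin food -0.39 for Atg10, -0.61 for CtsB and -0.07 for Vha13. Quantile normalisation gave 0.42 for CtsB and -0.05 for A_09_P063566 in control larvae and -0.22 for the latter in knockout larvae. Normexp, with or without outlier spots, gave 0.34 for CtsB and -0.04 for A_09_P063566 in control larvae, -0.13 for the latter in knockout larvae and -0.02 for Vha13 on rapamycin food. The deposited values gave 0.38 for CtsB and -0.06 for A_09_P063566 in control larvae, -0.23 for the latter in knockout larvae and -0.52 for CtsB on rapamycin food.

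Without the filter Vha13 in knockout larvae, at -0.35, had an adjusted p of 0.0548. The mean of the Atg10 probes gave 0.19 in knockout larvae and -0.18 on rapamycin food, both without a call. A threshold of 0.01 ended the calls for CtsB in control larvae (0.50) and on rapamycin food (-0.48) and for Atg10 (0.26) and Vha13 (-0.35) in knockout larvae.

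With slide as a fixed block CtsB lost its call in control larvae (0.44), as did Atg10 (0.25) and Vha13 (-0.40) in knockout larvae and Atg10 (-0.29) and CtsB (-0.41) on rapamycin food. CtsB in knockout larvae turned to 0.03, CtsB on ethanol food to 0.00 and the difference of effects for A_09_P063566 to 0.04. The rapamycin effects of the block are the contrasts within single slides, with 1 array in an arm, so fits of a slide alone gave the same values without a call: 0.44 for Atg10, 0.44 for CtsB and -0.58 for Vha13 within slide 1, and 0.25, 0.03 and -0.40 within slide 3. Slide as a random block brought calls for the difference of effects of Atg10 (-0.26), CtsB (-0.59) and Vha13 (0.34) and for Vha13 on ethanol food (-0.25), where Atg10 turned to 0.00. Array weights brought calls for the difference of Atg10 (-0.22) and Vha13 (0.38) and for Vha13 on ethanol food (-0.25). They turned CtsB to 0.09 in knockout larvae and -0.02 on ethanol food, and the difference of A_09_P063566 to 0.06. Replicate numbers did not pair the arrays: over 18 pairs of the same number the correlation of deviations ran from -0.83 to 0.17. The replicate block ended the call for Vha13 in knockout larvae (-0.35, adjusted p = 0.0645) and no other.

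Without the arrays with raised roX2, chosen after seeing the data, 1 knockout rapamycin array was left, array 3 with roX2 at -5.83. Atg10 (0.27) and Vha13 (-0.38) in knockout larvae and Atg10 (-0.24) and CtsB (-0.36) on rapamycin food were then not called, CtsB in knockout larvae turned to 0.11 and Vha13 on rapamycin food to -0.02.

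Leaving out each array in turn gave 0.43 to 0.55 for CtsB in control larvae. In knockout larvae it gave 0.23 to 0.29 for Atg10, -0.14 to 0.10 for CtsB and -0.42 to -0.30 for Vha13. The difference of A_09_P063566 ran from -0.07 to 0.04. On ethanol food Atg10 ran from -0.03 to 0.01 and CtsB from -0.07 to 0.16, and on rapamycin food CtsB from -0.55 to -0.37 and Vha13 from -0.01 to 0.12.

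The count of called probes, 9934 in control larvae, ran from 3283 within slide 1 to 12461 with array weights. For knockout larvae it was 3412, with 0 within slide 3 (3076 at an unadjusted p under 0.05) and 6017 with array weights, and for the difference of effects 3364, with 380 under median centring and 6172 with slide as a random block. On ethanol food it was 1332, with 8 with slide as a fixed block and 5286 with array weights, and on rapamycin food 6391, with 950 with slide as a fixed block and 9652 as a random block.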
